A study of Mus musculus with 6 samples.

Results

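Expression of 31 genes for lysosomal membrane proteins, lysosomal hydrolases and their transcriptional regulators was compared between macrophages without and with E-FABP, a fatty-acid carrier of the cytosol encoded by Fabp5. The genes were chosen by symbol, with the cathepsins left out, and 30 of the 31 had a probe set of their own on the array (65 probe sets in all), out of 18193 genes measured. Cd63, a tetraspanin of late endosomes, was not analysed here. Each gene was represented by its brightest probe set on average, and the other 35 probe sets served as a check.

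Bone marrow from C57BL/6 mice, described as 6 to 8 weeks old, was cultured for 7 days with the growth factor GM-CSF at 20 ng/ml to give macrophages, labelled GM-BMMs, which were then kept for 18 h beside E0771 mouse breast tumour cells held in a culture insert. The study comprised 3 cultures of genotype E-FABP knockout and 3 of genotype wild type, each on its own Affymetrix 3' expression array, and both genotypes had received the tumour cells. Which allele the knockout carries, and whether the cultures labelled biological replicates came from separate animals, is not stated in the labels. The p-values set the difference between genotypes against the spread of these cultures within a genotype, which limma moderates with that of all probe sets. They refer to these 6 cultures. A GM-CSF culture also holds cells with dendritic cell features, and in RNA from whole cultures fewer cells of a type and less RNA per cell cannot be told apart.

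Lysosomes are acidic compartments in which hydrolases break down lipids, glycans, glycogen and proteins, and macrophages use them to digest what they engulf. A proton pump, the V-ATPase, keeps them acidic, and heavily glycosylated membrane proteins such as LAMP-1 and LAMP-2 line them. The transcription factors TFEB, TFE3 and MITF bind E-boxes in the promoters of many lysosomal genes and can raise their transcription together. These factors are controlled largely through phosphorylation and movement into the nucleus, which an mRNA level does not show.

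The E-box core CACGTG was searched for in RefSeq promoters (GRCm38.p6, 250 bases before to 50 bases after the start, both strands, with a match on either strand being the same site because the core is a palindrome). Of the 31 genes 28 matched the promoter table, and 9 of them (32.1%) had the core, against 8.09% of the 27025 genes of the table and 7.15% of its 32851 promoters. The 9 were Lamp1, Mcoln1, Glb1, Gla, Arsa, Naglu, Sgsh, Gaa and Cln3. In each of the 9 at least 1 core was part of the longer word TCACGTG, which overlaps the core. That word was held on either strand by 4.29% of all genes of the table and 3.77% of all promoters. The full word TCACGTGA stood in Mcoln1, Gla and Cln3 (10.7% of the 28 genes), against 1.12% of all genes of the table and 0.974% of all promoters. The stretches printed first are the 250 bases before the start of Gla and Manba, the 2 genes that passed the test between genotypes, 1 with the core and 1 without it. They are followed by the stretches around the cores of Lamp1, Mcoln1 and Cln3, which had over 1 core as Gla did. All are 5′ to 3′ on the gene's strand, and capitals mark the core.
Gla, chrX:134601006-134601255, minus strand: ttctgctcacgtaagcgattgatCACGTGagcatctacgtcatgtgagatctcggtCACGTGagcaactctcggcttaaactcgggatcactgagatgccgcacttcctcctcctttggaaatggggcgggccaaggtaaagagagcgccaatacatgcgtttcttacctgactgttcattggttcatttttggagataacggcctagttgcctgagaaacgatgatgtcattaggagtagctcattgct
Manba, chr3:135485361-135485610, plus strand: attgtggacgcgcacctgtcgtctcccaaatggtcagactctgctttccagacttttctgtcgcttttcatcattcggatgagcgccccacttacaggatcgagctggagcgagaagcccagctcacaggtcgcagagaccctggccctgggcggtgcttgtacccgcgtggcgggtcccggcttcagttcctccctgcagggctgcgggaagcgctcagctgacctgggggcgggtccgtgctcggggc
Lamp1, chr8:13159095-13159156, plus strand: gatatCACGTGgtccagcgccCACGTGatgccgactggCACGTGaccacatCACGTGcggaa
Mcoln1, chr8:3500443-3500484, plus strand: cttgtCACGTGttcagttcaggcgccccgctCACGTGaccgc
Cln3, chr7:126583347-126583390, minus strand: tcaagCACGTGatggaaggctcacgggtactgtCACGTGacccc

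**Figure D1:**
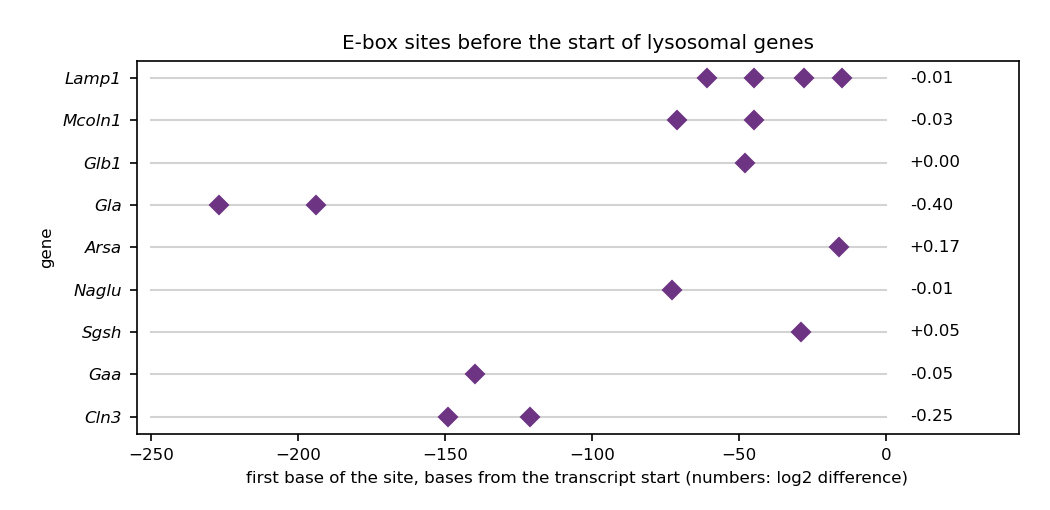
Distance of each E-box core from the transcript start (x axis, in bases; negative is before the start) in the 9 lysosomal genes whose RefSeq promoter held it, with the log2 difference between knockout and wild type printed at the right of each line. Lamp1 has 4 cores within 61 bases of its start, and the 2 cores of Gla lie farther away, at 227 and 194 bases.

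Knockout cultures had nearly lost Fabp5 mRNA, with a log2 intensity of 8.27 ± 0.13 (mean ± SD, n = 3) against 14.44 ± 0.03 in wild type (n = 3; limma adjusted p = 1.957e-09), so each array carried its stated genotype. Array medians lay between 5.60 and 5.64 on the log2 scale, and Pearson's r between arrays (over probe sets, which do not act as replicates) was at least 0.9965 within and 0.9914 between genotypes. Macrophage genes were bright in both genotypes, among them Csf1r, the receptor for CSF-1 (13.87 in knockout, 13.89 in wild type). The epithelial list, which would mark tumour cells, averaged 5.57 to 5.64 on all 6 arrays, near the median of all values (5.63). Within that list Cdh1 (8.29 in knockout, 8.18 in wild type) and Epcam (6.66 and 6.76) lay above the median. Krt8, Krt18, Krt19 and Cldn4 lay below it, and 0 of the 6 passed. On these arrays 2 of 12 dendritic cell markers, Batf3 and Fscn1, rose, 10 did not pass and 7 in all were higher at an unadjusted p under 0.05 (mean level 8.75 to 9.16 in knockout, 8.46 to 8.70 in wild type), while of 11 neutrophil markers 0 passed in limma and 8 were lower and 1 higher unadjusted (8.62 to 9.20 against 9.31 to 9.57). Of 9 fibroblast markers 3 fell and 6 did not pass (4.95 to 5.02 against 5.37 to 5.49), and of 9 macrophage markers Fcgr1 (-1.13) and Mertk (-0.46) fell and 7 did not pass (11.38 to 11.58 against 11.68 to 11.80). Over all genes 4.9% passed (limma adjusted p under 0.05) and 23.4% had an unadjusted p under 0.05. The part of these cell type markers in the results below was not tested. Xist, which is transcribed from the inactive X chromosome of females, read 13.02 to 13.06 on all 6 arrays; of the genes described here Gla, Lamp2, Ids and Tfe3 lie on the X chromosome.

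In the knockout cultures the mRNA signal of most of these lysosomal genes was close to that of the wild-type cultures. Of the 30 measured, 1 rose (Manba), 1 fell (Gla) and 28 did not pass (limma, Benjamini-Hochberg adjusted p under 0.05 over 45037 probe sets). The share called, 6.67%, lies near that of all genes, of which 4.9% passed, 2.85% higher and 2.05% lower. At an unadjusted p under 0.05, 3 were higher and 2 lower, 16.7% of the 30 against 23.4% of all genes. The median log2 difference (knockout minus wild type) was -0.02, with 0.01 over all genes, and the median size of the difference regardless of sign was 0.06 against 0.10. For the 28 genes that did not pass, the differences ran from -0.25 to 0.26, and the 95% interval of each, from limma's moderated SE and not widened for the number of genes, lay within 0.5 of 0 on the log2 scale, that is within 1.41-fold. With called genes included, such an interval was found for 93.3% of the 30 genes and for 89.5% of all genes. In 18 of the 30 genes it lay within 0.25, or 1.19-fold, as it did in 37.0% of all genes. These intervals bound the difference in the signal of each gene's brightest probe set and do not show that it is 0. Some of these probe sets were very bright, up to a mean of 14.35 (Gpnmb). A dimmer probe set of the same gene differed more in some genes, such as Gpnmb (-0.14 against -0.02), and less in others, such as Gusb (0.19 against 0.26). Whether very bright probe sets understate differences was not tested.

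**Figure D2:**
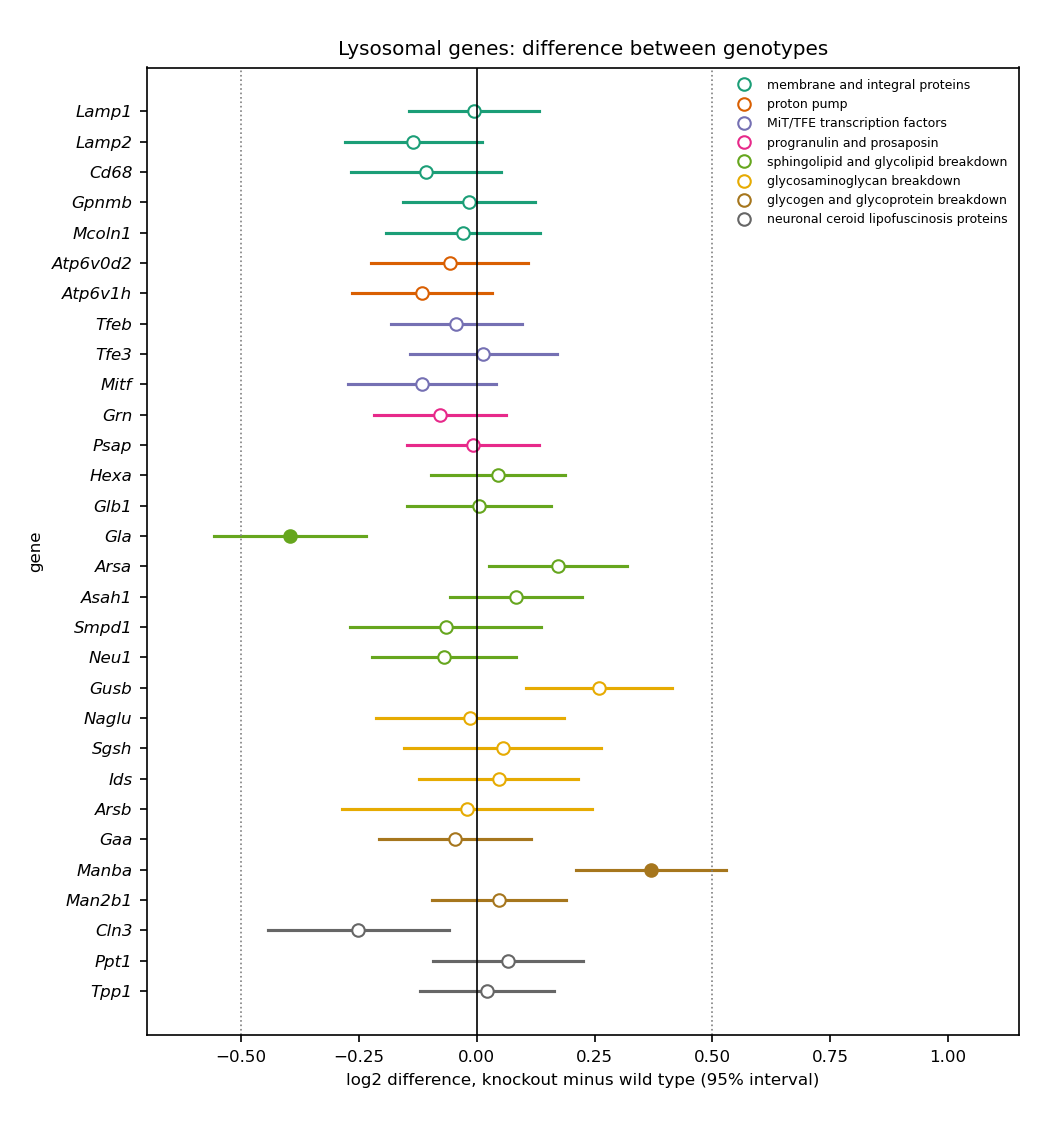
Log2 difference in expression, knockout minus wild type (x axis), for the 30 lysosomal genes, coloured by role; points are limma estimates from 3 arrays per genotype, bars are 95% intervals, filled points passed the adjusted threshold, and dotted lines mark a difference of 0.5 either way. Gla at -0.40 and Manba at 0.37 are the filled points, and the intervals of the other 28 genes stay between the dotted lines.

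Values of the 2 genotypes did not overlap for 11 of the 30 genes (36.7%), against 31.9% of all genes. In 7 of them (23.3%) all knockout values were the lower, against 11.2% of all genes, and in 4 (13.3%) all were the higher, against 20.7%. The 7 were Lamp2, Atp6v1h, Tfeb, Mitf, Grn, Gla and Cln3, and the 4 were Manba, Gusb, Arsa and Asah1. Several of these gaps were small, as in Tfeb, where the highest knockout value and the lowest wild-type value both round to 7.83. The mean deviation of the 30 genes from their own means was -0.04, -0.02 and 0.04 on knockout replicates 1, 2 and 3 and -0.02, 0.03 and 0.00 on wild-type replicates 1, 2 and 3, so the arrays of the 2 genotypes were interleaved for the group as a whole.

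**Figure D3:**
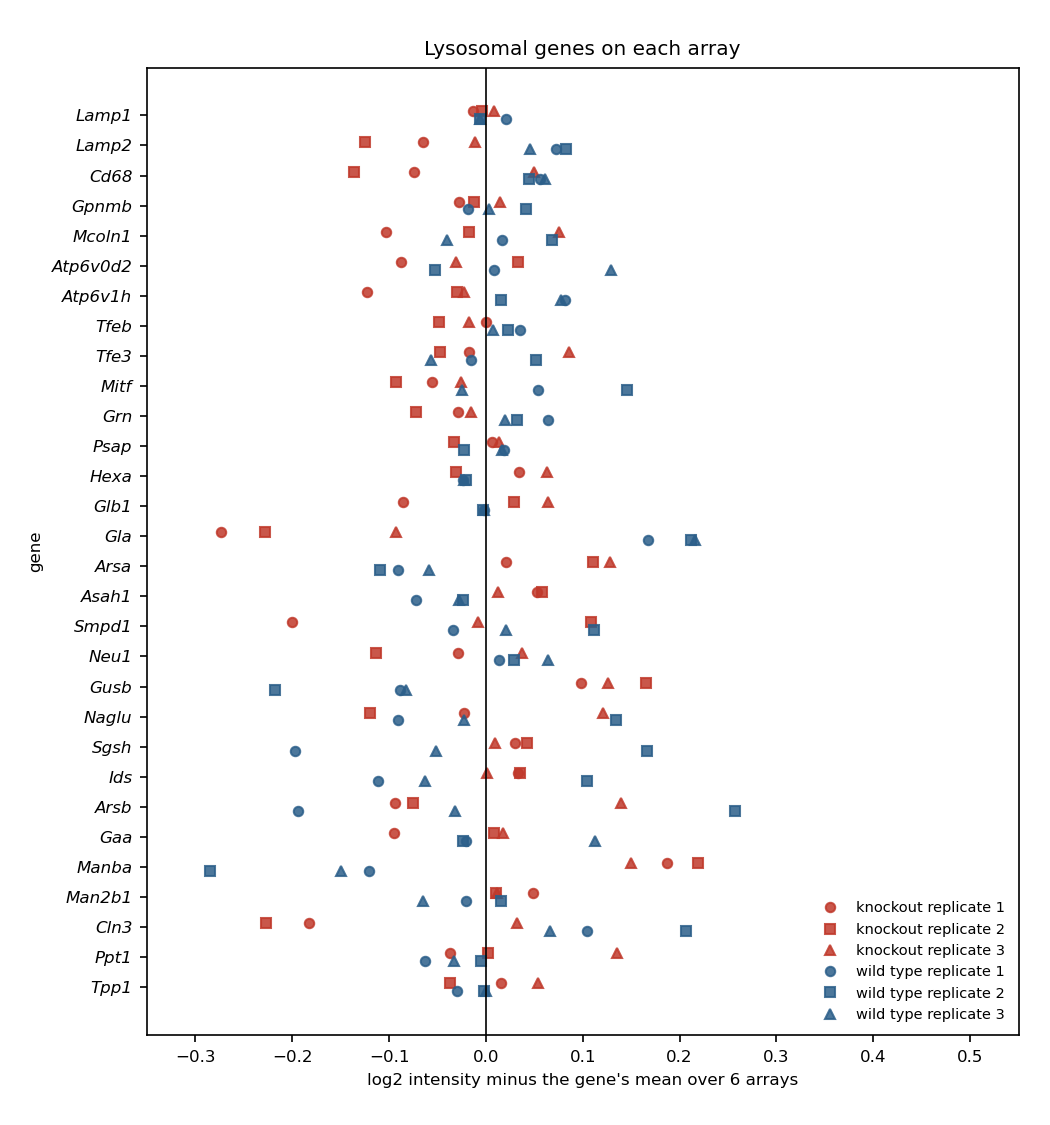
Log2 intensity of each of the 30 lysosomal genes on each of the 6 arrays, minus that gene's mean over the arrays (x axis); red symbols are the 3 knockout and blue symbols the 3 wild-type cultures, and the symbol's shape gives the replicate number. The colours separate widely in Gla, Manba and Gusb and are mixed in genes such as Lamp1, Psap and Tpp1.

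For Lamp1, Lamp2, Cd68, Gpnmb and Mcoln1, the membrane proteins described first (Cln3 follows with its disease group), 0 of 5 passed limma's threshold, with 0 at an unadjusted p under 0.05, and the median difference was -0.03. Lamp1, the gene of the most commonly used lysosomal marker, read 13.65, 13.66 and 13.67 in knockout replicates 1, 2 and 3 and 13.68, 13.66 and 13.66 in wild type. These values overlap, and the difference of -0.01 had a 95% interval of -0.14 to 0.13. Lamp2, whose product is also needed for fusion of autophagosomes with lysosomes, read 12.91, 12.86 and 12.97 in knockout and 13.05, 13.06 and 13.03 in wild type. All its knockout values were the lower, by -0.13 on average (SE 0.06, limma adjusted p = 0.287), with its 3 remaining probe sets at -0.13, -0.01 and -0.06.

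Cd68, a macrophage glycoprotein of late endosomes and lysosomes, was at 13.16, 13.09 and 13.28 in knockout and 13.29, 13.27 and 13.29 in wild type, a difference of -0.11 (limma adjusted p = 0.447). Knockout replicate 3 lay within the wild-type range and the other two knockout arrays below it. Gpnmb, a membrane glycoprotein of macrophages under lysosomal load, gave 14.32, 14.33 and 14.36 in knockout and 14.33, 14.39 and 14.35 in wild type. Its values overlap (difference -0.02), while the dimmer of its 2 probe sets was at -0.14 with an adjusted p of 0.297 in limma and all knockout values the lower. Mcoln1, which codes for the calcium channel TRPML1 of the lysosomal membrane, differed by -0.03 with a 95% interval of -0.19 to 0.13.

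Neither gene of the proton pump passed, and 0 of the 2 had an unadjusted p under 0.05 in limma. Atp6v0d2, a V0 subunit abundant in osteoclasts and in some macrophages, read 12.09, 12.21 and 12.15 in knockout and 12.19, 12.12 and 12.31 in wild type, a difference of -0.06 (limma adjusted p = 0.728). Its 2 probe sets were nearly equally bright and pointed opposite ways, the other being at 0.15 (limma adjusted p = 0.355), so no direction can be given for this gene. Of 7 osteoclast markers on the same arrays Itgb3 fell (-0.45), 6 did not pass, and the mean level was 7.49 to 7.62 in knockout and 7.58 to 7.69 in wild type. Atp6v1h, the regulatory H subunit of the V1 sector, differed by -0.12 (limma adjusted p = 0.367), with a dimmer probe set at -0.32 (limma adjusted p = 0.0747).

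The 3 transcription factors did not pass, and 0 of the 3 had an unadjusted p under 0.05 in limma. Tfeb read 7.83, 7.78 and 7.81 in knockout replicates 1, 2 and 3 and 7.86, 7.85 and 7.83 in wild type, a difference of -0.04 with a 95% interval of -0.18 to 0.10. Tfe3 read 9.14, 9.11 and 9.24 against 9.14, 9.21 and 9.10, which overlap, with a difference of 0.01 and an interval of -0.14 to 0.17. For Mitf, the values were 11.23, 11.19 and 11.26 in knockout and 11.34, 11.43 and 11.26 in wild type. The Mitf ranges touch at 11.26 without overlapping, and the difference was -0.12 (limma adjusted p = 0.402), with -0.16 in its other probe set. The 9 genes with the E-box core in their promoter had a median difference of -0.01, from -0.40 (Gla) to 0.17 (Arsa), and 6 of them had the lower mean in knockout. The 18 measured genes of the promoter table without the core also had a median of -0.01, from -0.13 (Lamp2) to 0.37 (Manba), and 10 had the lower mean. Lamp1 and Mcoln1, which have 4 and 2 cores in the stretches printed above, differed by -0.01 and -0.03.

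Progranulin (Grn), a lysosomal glycoprotein also secreted by macrophages, and prosaposin (Psap), the precursor of the saposins that present sphingolipids to their hydrolases, did not pass. Grn lay lower on all 3 knockout arrays in each of its 3 probe sets, at -0.08, -0.10 and -0.19 (limma adjusted p of 0.538, 0.429 and 0.150). The dimmest, at -0.19, had an unadjusted p of 0.0190 in limma, and the brighter ones have names ending in _x_at. With probe sets ending in _s_at or _x_at left out, the dimmest stood for Grn and did not pass (limma adjusted p = 0.164). Psap read 14.30, 14.26 and 14.31 in knockout against 14.31, 14.27 and 14.31 in wild type, a difference of -0.01.

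Gla was the gene of the group that fell. It codes for alpha-galactosidase A, which removes the terminal galactose of globotriaosylceramide and is deficient in Fabry disease. It read 11.02, 11.07 and 11.20 in knockout replicates 1, 2 and 3 and 11.46, 11.51 and 11.51 in wild-type replicates 1, 2 and 3. Every knockout value lay below every wild-type value, and the fall was -0.40 (SE 0.07, n = 3 per genotype), or 1.32-fold (limma adjusted p = 0.0252). The second probe set was lower as well, at 7.96, 8.21 and 8.20 against 8.38, 8.57 and 8.52 (-0.37, limma adjusted p = 0.0589). The dimmest of its 3 probe sets read 3.42, 3.42 and 3.43 against 3.38, 3.23 and 3.37, under the median of all values (5.63), and differed by 0.10. The genes measured on either side of Gla on the X chromosome, Btk (0.14) and Hnrnph2 (-0.13), did not pass. When 1 culture was left out, the call was kept without knockout replicate 3. It was lost when the culture left out was replicate 1 or 2 of the knockout or replicate 1, 2 or 3 of the wild type (limma adjusted p of 0.0587 to 0.0911, differences of -0.36 to -0.41). It was -0.22 (limma adjusted p = 0.0577) with the mean of all 3 probe sets.

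The other 6 genes of sphingolipid and glycolipid breakdown did not pass. Arsa, the sulfatase that acts on sulfatide, was at 8.64, 8.74 and 8.75 in knockout and 8.53, 8.51 and 8.57 in wild type, higher on every knockout array by 0.17 on average (limma adjusted p = 0.177; unadjusted p = 0.0261). Asah1, the acid ceramidase, was also higher on every knockout array, by 0.08 (limma adjusted p = 0.508). Hexa, the alpha subunit of beta-hexosaminidase that degrades GM2 ganglioside, differed by 0.04, and the beta-galactosidase gene Glb1 by less than 0.01 in size, with a 95% interval of -0.15 to 0.16. The acid sphingomyelinase gene Smpd1 (-0.07) and the sialidase gene Neu1 (-0.07) overlapped between genotypes. In Smpd1 knockout replicate 1 (8.10) was the lowest array and knockout replicate 2 (8.41) lay at the level of the highest wild-type array (8.41).

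Manba was the gene of the group that rose. It codes for lysosomal beta-mannosidase, which cleaves the last mannose of N-linked glycans during glycoprotein breakdown. Its single probe set read 9.36, 9.39 and 9.32 in knockout replicates 1, 2 and 3 and 9.05, 8.89 and 9.02 in wild type. All knockout values lay above all wild-type values, and the rise was 0.37 (SE 0.07, n = 3 per genotype), or 1.29-fold (limma adjusted p = 0.0290). Manba lies on chromosome 3, which also carries Fabp5. Of the genes measured on either side of Manba, Ube2d3 was at -0.02 and Slc39a8 at 0.26, and neither passed (limma adjusted p of 0.915 and 0.0914). Slc39a8 was dim, at 5.33 in knockout and 5.08 in wild type, under the median of all values (5.63). As for Gla, the call of Manba was lost when any culture but knockout replicate 3 was left out (limma adjusted p of 0.0574 to 0.0954, differences of 0.32 to 0.40). The other enzymes of this role, the alpha-mannosidase gene Man2b1 (0.05) and the glycogen-degrading alpha-glucosidase gene Gaa (-0.05), did not pass. Their second probe sets were at 0.19, with all knockout values the higher (limma adjusted p = 0.193), and at -0.01 (limma adjusted p = 0.948).

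**Figure D4:**
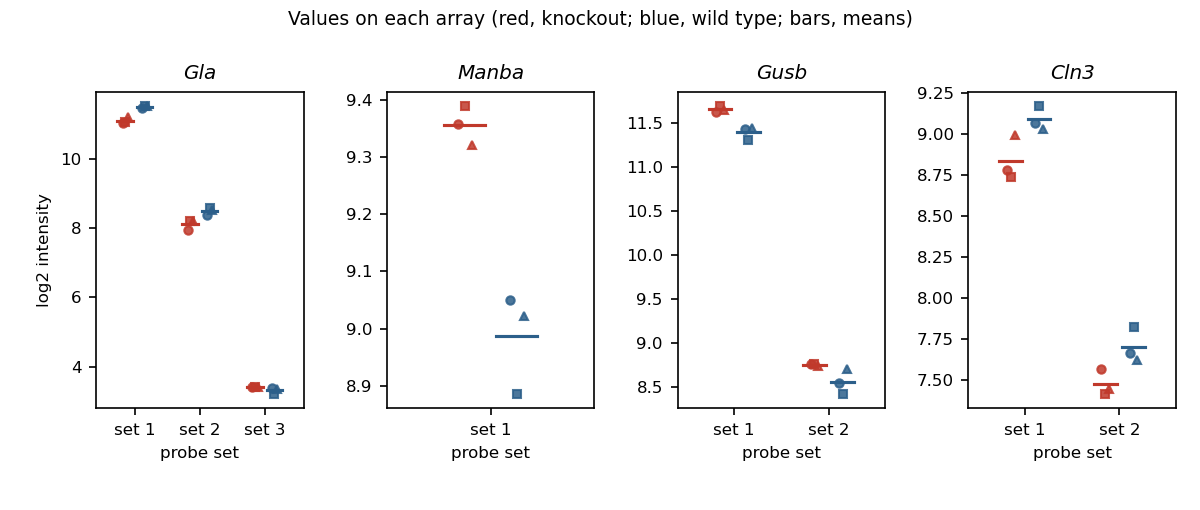
Log2 intensity (y axis, a separate range in each panel) of every probe set of Gla, Manba, Gusb and Cln3 on the 3 knockout (red) and 3 wild-type (blue) arrays, with probe sets in order of falling mean, bars at the group means and symbol shapes for replicate numbers 1 (circle), 2 (square) and 3 (triangle). The 2 brighter probe sets of Gla are lower in knockout and the dimmest, is not; both probe sets of Gusb are higher and both of Cln3 lower in knockout.

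Enzymes of glycosaminoglycan breakdown gave 0 of 5 past limma's threshold and 1 at an unadjusted p under 0.05. That gene was Gusb, the beta-glucuronidase, at 11.62, 11.69 and 11.65 in knockout and 11.43, 11.30 and 11.44 in wild type. Its genotypes did not overlap, and the difference was 0.26 (SE 0.07, limma adjusted p = 0.0716), with 0.19 in the second probe set. Gusb passed in 2 of 15 alternative fits and not in the other 13 (limma adjusted p up to 0.192). The 2 were trend and robust settings of eBayes (adjusted p = 0.0117) and probe sets above the median level only (adjusted p = 0.0360). In these fits 9.27% and 13.5% of all genes passed, against 4.9% in the main fit. The heparan sulfate enzymes Naglu (-0.01), Sgsh (0.05) and Ids (0.05) and the dermatan sulfate sulfatase Arsb (-0.02) overlapped between genotypes. Wild-type cultures spread widely in Arsb (8.06, 8.51 and 8.22) and Sgsh (5.75, 6.12 and 5.90), with replicate 1 the lowest and replicate 2 the highest in each. The SE of Arsb, 0.12, was the highest of the 30 genes, and its 95% interval ran from -0.29 to 0.25.

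Cln3, Ppt1 and Tpp1 are among the genes mutated in neuronal ceroid lipofuscinoses, storage diseases of the brain. Of these 3, 0 passed in limma and 1 had an unadjusted p under 0.05. Cln3, a lysosomal membrane protein, read 8.78, 8.73 and 8.99 in knockout and 9.06, 9.17 and 9.03 in wild type. All its knockout values were the lower, by -0.25 (SE 0.09, limma adjusted p = 0.138), and the second probe set lay at -0.23 (limma adjusted p = 0.145). The palmitoyl-protein thioesterase gene Ppt1 and the tripeptidyl peptidase gene Tpp1 differed by 0.07 and 0.02 in their main probe sets and by 0.19 and 0.15 in the next brightest, with adjusted p in limma between 0.178 and 0.894. In the next brightest probe set of each gene all knockout values were the higher. In the dimmest of Ppt1 (-0.09) all were the lower.

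Across the group, 23 of the 35 other probe sets had a mean above the median of all values, and 19 of these 23 had the sign of the gene's main probe set. Of the 12 at or below the median, 4 did. In 24 of the 30 genes the SD was under 0.1 in both genotypes.

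Few genes of the rest of the lysosomal system passed. Of 90 measured genes of 6 further lists, 2 rose, 1 fell and 87 did not pass, 3.33% called beside 4.9% of all genes, and 24.4% had an unadjusted p under 0.05 beside 23.4%. After quantile normalization 0 were higher and 2 lower, and after median centring 2 were higher and 0 lower. Pld4, a lysosomal exonuclease that degrades single-stranded nucleic acids, rose from 8.60, 8.77 and 8.84 in wild type to 9.04, 9.20 and 9.15 in knockout (0.39, limma adjusted p = 0.0400). Tpcn1, a cation channel of the endolysosomal membrane, rose from 6.84, 7.10 and 6.87 to 7.44, 7.63 and 7.24 (0.50, limma adjusted p = 0.0431), and was at 0.21 (limma adjusted p = 0.164) when its probe sets were averaged. Slc15a3, a lysosomal histidine and peptide transporter, fell from 12.88, 12.95 and 12.83 to 12.59, 12.52 and 12.62 (-0.31, limma adjusted p = 0.0439). In these 3 genes the genotypes did not overlap. Pld4 (limma adjusted p of 0.0532 to 0.131) and Slc15a3 (0.0669 to 0.138) lost the call whichever culture was left out, and Tpcn1 (0.0811 to 0.125) lost it except without knockout replicate 3 (0.0273).

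Of the further V-ATPase subunits 0 of 16 passed in limma (0 higher and 2 lower at an unadjusted p under 0.05), with Atp6v0a2, a V0 subunit, having the smallest p (-0.36, limma adjusted p = 0.0894). Of the genes that deliver enzymes to the lysosome 0 of 8 passed (1 higher and 0 lower unadjusted), led by the sorting receptor gene Sort1 (0.27, limma adjusted p = 0.0910). Among genes that control TFEB and the kinase complex mTORC1 at the lysosome 0 of 15 passed (2 higher and 1 lower unadjusted), led by the GTPase gene Rragc (-0.22, limma adjusted p = 0.101). In autophagy 0 of 14 passed (1 higher and 1 lower unadjusted), led by Sqstm1, the autophagy receptor p62 (-0.32, limma adjusted p = 0.0673). The medians of the 6 lists lay between -0.04 and 0.03.

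**Figure D5:**
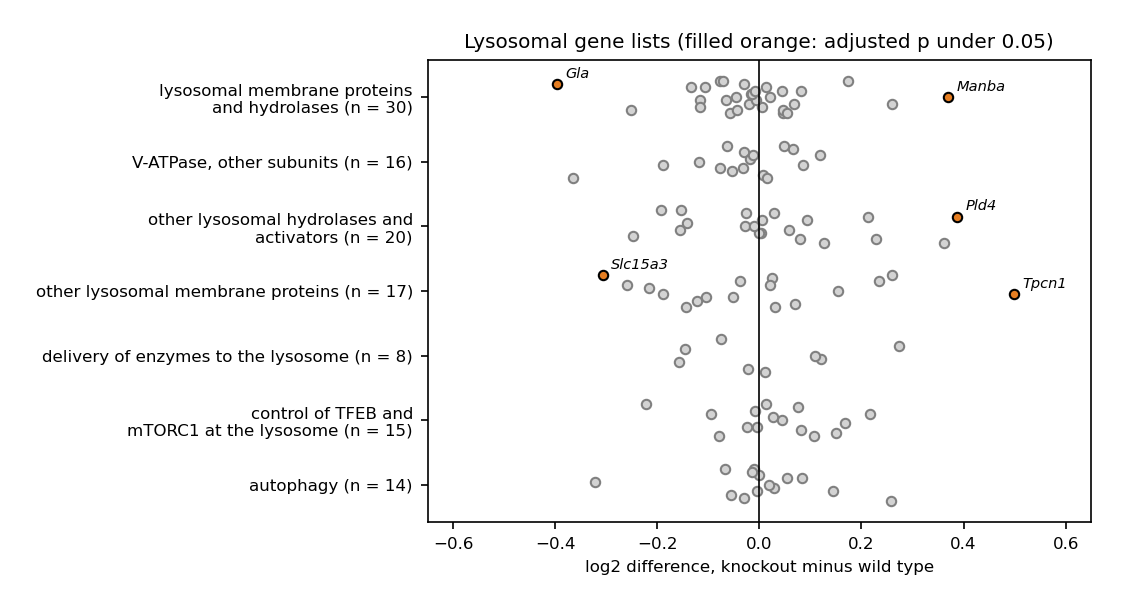
Log2 difference, knockout minus wild type (x axis), of each measured gene in the 30-gene group and in 6 further lysosomal lists, 1 point per gene, spread vertically for legibility; orange points passed limma's adjusted threshold and are named. Gla, Manba, Pld4, Slc15a3 and Tpcn1 are the named points.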

How the data were processed

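RNA from 6 macrophage cultures had been hybridised to Affymetrix 3' expression arrays (labels' protocols). Deposited log2 values cover 45101 probe sets, a scale read from their range. RMA, GCRMA 2.30.0, limma 3.14.4 and affy 1.36.1 stand without roles in the submitters' processing notes, so which method made the values is unknown. Both equalise the arrays' distributions, which would hide a shift shared by most genes, and they treat dim probe sets differently.

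After leaving out 64 control probe sets, 45037 were fitted with limma 3.58.1 in R 4.3.3 (genotype as the only term, lmFit and eBayes, prior degrees of freedom 5.05), with Benjamini-Hochberg adjustment over all of them, two-sided, and no filter. Platform symbols, updated through gene identifiers, named 34945 probe sets by 1 gene; 932 with several genes and 9160 without one were tested but not named. An exact permutation test of 3 against 3 arrays cannot give a two-sided p under 0.1. Correlations of same-numbered cultures' deviations from their genotype means were -0.06, -0.04 and -0.13. Differently numbered cultures were not set beside them, so whether the replicate numbers pair the cultures is not settled.

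The genes and lists were chosen with earlier results of these data known. All 31 genes were to be accounted for; called ones and Tfeb, Tfe3, Mitf, Lamp1, Lamp2, Cd68, Gpnmb and Atp6v0d2 got every value, and of each further list up to 4 called genes, or else the 1 with the smallest p, were named. Other values were chosen after they were seen. The lymphocyte list (0 of 6 called, 0 higher and 2 lower unadjusted in limma) and the mast cell and basophil list (0 of 5, 1 higher and 0 lower unadjusted) were also read. Alternatives are given in the closing section. Plots used Python 3.11.15 and matplotlib 3.10.9.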

Additional observations from a re-analysis of the deposited data

How the results depend on the processing

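The number of the 30 genes that passed was 2 in limma's fit of the deposited values. It stayed at 2 or 3 after quantile normalization, median centring, with probe sets above the median level only, trend and robust settings, array weights, without probe sets ending in _s_at or _x_at, and at an adjusted p under 0.1, with Gla and Manba among them each time and Gusb as the third. It was 1 (Manba) when the probe sets of a gene were averaged, and 0 with a floor at the 20th percentile (10 at an unadjusted p under 0.05) and with the replicate block (5 unadjusted); the cause was not tested. Leaving out each culture in turn gave 0 to 2, with 3 to 5 at an unadjusted p under 0.05. For the 90 further lysosomal genes the number, 3, was 8 with probe sets above the median level only (where 13.5% of all genes passed), 13 with trend and robust settings (9.27% of all genes), 9 at an adjusted p under 0.1 (10.7% of all genes), 0 with the floor (31 unadjusted) and 0 with the replicate block (18 unadjusted), and 0 to 1 without each culture in turn. Calls over all 18193 genes moved too, from 892 (4.9%) to 1522 of 11285 with probe sets above the median level only, 1687 with trend and robust settings, 1941 at an adjusted p under 0.1, 31 with the floor, 45 with the block, and 17 to 769 without a culture. The median difference of the 30 genes stayed between -0.04 and 0.01 in these fits. Of the 30, 13 that did not pass changed sign in at least 1 of 15 alternatives, and neither Gla nor Manba did. Precision is limited by having 3 arrays per genotype, and dim probe sets have no background level here to set them against.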
